A study of Bos grunniens and Bos grunniens x Bos taurus with 2 samples.

Results

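The members described here are the ADAM, ADAMTS and MMP metalloproteases and the TIMP inhibitors of the testis. They were taken from the annotation by symbol, without use of any measured value: 57 of 26961 annotated features carried such a symbol, of which 16 were ADAM, 17 ADAMTS, 20 MMP and 4 TIMP genes. Single-cell RNA sequencing had been performed on testis of 1 sexually mature yak (Bos grunniens) and of 1 sexually mature cattle-yak, a cross of Bos grunniens and Bos taurus, with 1 library for each. The labels gave no treatment, no genotype beyond the species and no age in years, and the study's methods gave 4 years for the yak alone and did not describe the cattle-yak. For the yak, those methods described testis pieces that were frozen, thawed and digested with collagenase, hyaluronidase and trypsin. Each animal stood for its group alone, so the values below carry counting intervals only, and any difference between the libraries is one between 2 libraries and not between the crosses.

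The 4 families act on the cell surface and on the matrix. ADAMs are membrane proteases with a disintegrin domain that release the outer part of other membrane proteins, and a set of them that is made almost solely by male germ cells, many without protease activity, is processed on the way to the sperm surface. ADAMTS proteases and most MMPs are secreted and cut proteoglycans, procollagens and other matrix proteins, and TIMPs bind and block MMPs and, in part, ADAMs and ADAMTSs.

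The deposited matrices held 60816600 UMIs in 11991 cells for the yak and 43774841 in 8930 for the cattle-yak, of which 10324 and 7092 cells were kept, and 24 barcodes occurred in both. Types of yak germ cells were those of the study's own table of germ cell barcodes, with 84 spermatogonial stem cells (SSC), 486 spermatogonia (SPG), 72 early and 261 late spermatocytes (early-SPC, late-SPC) and 224 spermatids (SPT). All kept cells were clustered with the members left out, and for cells outside that table the clusters were named "-like" from marker lists or else by their leading genes. The germ cell marker list, of which 29 genes were annotated, summed to 1013 CPM in SSC, 2516 in SPG, 6665 in early-SPC, 4207 in late-SPC and 9384 in SPT, against 242 in T/NK-like cells (CPM, the share of a gene in all UMIs of a group on the usual CPM scale). In macrophage-like cells of the yak it summed to 1037 CPM, so this list does not set SSC apart from every somatic class. The types had been set by the study from clustering of the same cells, so differences between them are descriptions. A gene was called in a group at a log2 ratio of at least 1 to all other kept cells of its library, with 1 CPM added to each side, at least 50 UMIs over kept cells and at least 20 in the group. The leading group of a member is the one with its highest CPM among groups of at least 50 cells in which it had at least 20 UMIs.

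Over kept cells, 30 members reached 50 UMIs in the yak library and 27 in the cattle-yak library, 26 of them in both. These were 10 ADAM, 11 ADAMTS, 5 MMP and 4 TIMP genes in the yak, and 7, 10, 6 and 4 in the cattle-yak. The members under this minimum in both libraries were ADAM7, ADAM8, ADAM11, ADAM21, ADAM22, ADAM23, ADAMTS13, ADAMTS14, ADAMTS15, ADAMTS16, ADAMTS19, ADAMTS20, MMP1, MMP3, MMP7, MMP8, MMP9, MMP11, MMP12, MMP13, MMP16, MMP17, MMP20, MMP24, MMP25 and MMP27. ADAM7 had no UMI in any deposited cell of either library. Among the members under the minimum were all collagenases, stromelysins and matrilysins with a symbol and the gelatinase MMP9. MMP15 reached the minimum in the cattle-yak alone, and ADAM2, ADAM18, ADAM32 and ADAMTS18 in the yak alone. With removed cells counted, some of these exceeded 50 UMIs. In the yak, ADAM23 had 192 UMIs over all deposited cells and 34 over kept cells, ADAMTS20 187 and 26, and MMP13 114 and 24. In the cattle-yak, ADAMTS18 had 139 and 47, and ADAM32 86 and 16.

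By highest CPM among groups with at least 20 UMIs, most measured members led in somatic cells. In the yak, 12 of them led in a mesenchymal class (stromal-like, muscle, pericyte-like, TNNI1/KRT18 or ICAM5/NRK cells), 9 in an endothelial class, 5 in a germ type, 1 in macrophage-like cells and 2 in unnamed clusters, and ADAM18 had no group with 20 UMIs. In the cattle-yak, 14 led in a mesenchymal class, 9 in an endothelial class, 2 in germ-like cells and 2 in unnamed clusters. Of the 26 members measured in both libraries, 18 led in the same compartment. With the upper limits on genes and UMIs lifted, which let in deep germ cells, germ cells led for 13 members in the yak and 5 in the cattle-yak. The minimum of 20 UMIs keeps small germ types from leading for members of low level. In the yak, SSC held 153082 UMIs and early-SPC 284770, against 3810273 in stromal-like cells. The share of all features by leading compartment was not computed, so these counts are descriptions.

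Stromal-like cells held the largest number of called members. In the yak, 13 of 30 measured members (43.3%) were called in stromal-like cells, against 8.04% of all measured features, and in the cattle-yak 9 of 27 (33.3%), against 6.56%. The median log2 ratio of the members in these cells was 0.45 in the yak and 0.81 in the cattle-yak, against -0.20 and -0.14 over all features. In the yak, 9 members were called in the TNNI1/KRT18 cluster, where the muscle marker list summed to 19458 CPM and the stromal-like list to 7908 (background 6.54%), 7 in lymphatic endothelial (EC-like) cells (5.13%), 6 in pericyte-like cells (3.63%), 6 in the KCNJ8/STMN2 cluster (4.21%), 4 in EC-like cells (7.31%), 3 in the WFDC2/TF cluster (1.84%) and 2 in muscle (MC-like) cells (5.38%). The KCNJ8/STMN2 cluster was deep and carried both EC-like and pericyte-like markers. Its median was 9994 UMIs in the yak and 9976.5 in the cattle-yak, against 4361 in EC-like and 5326.5 in pericyte-like cells of the yak. No doublet was removed, and whether this cluster held doublets was not tested. The 32 cells of the DEFB123/AARD cluster held 1 (1.0%), and there was none in B cell-like cells (0.797%) or the CDC42BPA/CAVIN1 cluster (0.258%). Germ types held few: 2 members were called in late-SPC (15.7%), 2 in early-SPC (11.9%), 1 in SPT (10.7%), 1 in SSC (1.22%) and none in SPG (9.36%), while 2 were called in germ-like cells outside these types (29.4%). In simulated yak data with Poisson counts, 39 of 100 genes raised by 2 on the log2 scale were called in early-SPC, against 96 of 100 in stromal-like cells. Smaller raises were not simulated. A low count in a small germ type therefore does not show that members were not raised there. In the cattle-yak, 3 members were called in the ICAM5/NRK cluster (2.47%), 3 in the KCNJ8/STMN2 cluster (4.99%), 2 in the TNNI1/KRT18 cluster (3.39%), 2 in MC-like (6.13%) and 2 in germ-like cells (22.1%). The DEFB123/AARD cluster held 1 (3.16%), macrophage-like (4.94%) and T/NK-like cells (7.24%) none, and the small SCN7A/CDH19 (0.448%), STAR/TNNI3 (0.367%) and epithelial-like (1.01%) clusters held 1, 2 and 1.

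The ADAMs of sperm were raised late in meiosis. ADAM2, or fertilin beta, a sperm surface protein that takes part in binding of sperm to the egg, had no UMI in SSC, 3.23 CPM in SPG, 7.02 in early-SPC, 315 (95% interval 267 to 369.6) in late-SPC and 44.2 (22.8 to 77.2) in SPT. The level in late-SPC lay above every other group, and T/NK-like cells, which do not make sperm proteins, had 2.94 CPM. Its log2 ratio to other kept cells was 5.82 in late-SPC, but the study lists ADAM2 as a marker of late-SPC, so this is no independent evidence. ADAM32, a further testis ADAM, had 13.1 CPM in SSC, 14.5 in SPG, 10.5 in early-SPC, 395 (340.3 to 455) in late-SPC and 357 (289.6 to 436) in SPT. ADAM18 had 19 UMIs or 39.9 CPM (24.0 to 62.3) in late-SPC and 4 UMIs or 14.7 CPM in SPT.

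ADAM2 was lower in SPT than in late-SPC, while ADAM32 was at a similar level in both. Since the study lists ADAM2 as a late-SPC marker, its difference between these types is a description. From late-SPC to SPT the level of ADAM2 was 7.13-fold lower, a log2 ratio of late-SPC over SPT of 2.83 (1.99 to 3.82), whereas that of ADAM32 differed by 1.11-fold, a log2 ratio of 0.14 (-0.22 to 0.51). The interval of ADAM18 (-0.15 to 3.45) was too wide to place it with either. All intervals hold counting error of 1 library only. ADAM2, ADAM32 and ADAM9 stand near each other in the gene order of the RefSeq assembly Bosgru_T2T1.0, in which 52 of the 57 members were found by symbol. Other genes may lie between them.

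The share of cells with a UMI followed the levels. After thinning to 1000 UMIs per cell, 22.6% (16.4 to 29.7) of 164 late-SPC held a UMI of ADAM2 and 26.8% (20.2 to 34.3) a UMI of ADAM32, and 97 late-SPC with fewer UMIs were left out. Without thinning the shares were 26.8% and 36.0% of 261 cells. Among SPT, 4.08% (1.12 to 10.1) of 98 thinned cells held ADAM2 and 25.5% (17.2 to 35.3) ADAM32. In T/NK-like cells of the same library the shares were 0.424% and 1.02% of 3535 thinned cells, and these shares stand as the background of a type that should lack both genes. Without thinning the shares were 5.36% and 29.0% in SPT and 0.588% and 1.95% in T/NK-like cells. The unthinned median depths were 1168 UMIs in late-SPC, 906 in SPT and 1938 in T/NK-like cells.

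The yak also held germ-like cells that the study's table does not type. In 330 kept cells of this kind ADAM32 had 171 CPM and ADAM2 59.2. A further 412 germ-like yak cells lay above the limits on genes and UMIs, with a median of 26482 UMIs, and had 186 CPM of ADAM2 (179 to 194), 24.6 CPM of ADAM18 (22.0 to 27.4) and 329 CPM of ADAM32 (319.6 to 339). These levels rest on 2490 UMIs of ADAM2, 329 of ADAM18 and 4400 of ADAM32, in cells that took no part in the other values.

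Other ADAMs were highest at other steps. ADAM9, a widely expressed protease of the cell surface, had 13.1 CPM in SSC, 12.9 in SPG, 169 (124 to 223) in early-SPC, 4.20 in late-SPC and 22.1 in SPT, so that early-SPC stood 13.0-fold above SPG and 40.1-fold above late-SPC. ADAM17, the sheddase that releases tumor necrosis factor and ligands of the EGF receptor, had 58.8 CPM in SSC, 27.5 in SPG, 94.8 (62.5 to 138) in early-SPC, 10.5 in late-SPC and 11.0 in SPT. Both genes led in early-SPC among all groups of the yak, and both led in germ-like cells of the cattle-yak, with 55.4 CPM for ADAM9 and 73.9 for ADAM17. With 72 early-SPC, the yak levels rest on 48 and 27 UMIs. ADAM10, the sheddase that cleaves Notch receptors, had 281 CPM (203 to 378) in SSC, 134 in SPG and between 45.7 and 69.9 in the 3 later types.

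**Figure D1:**
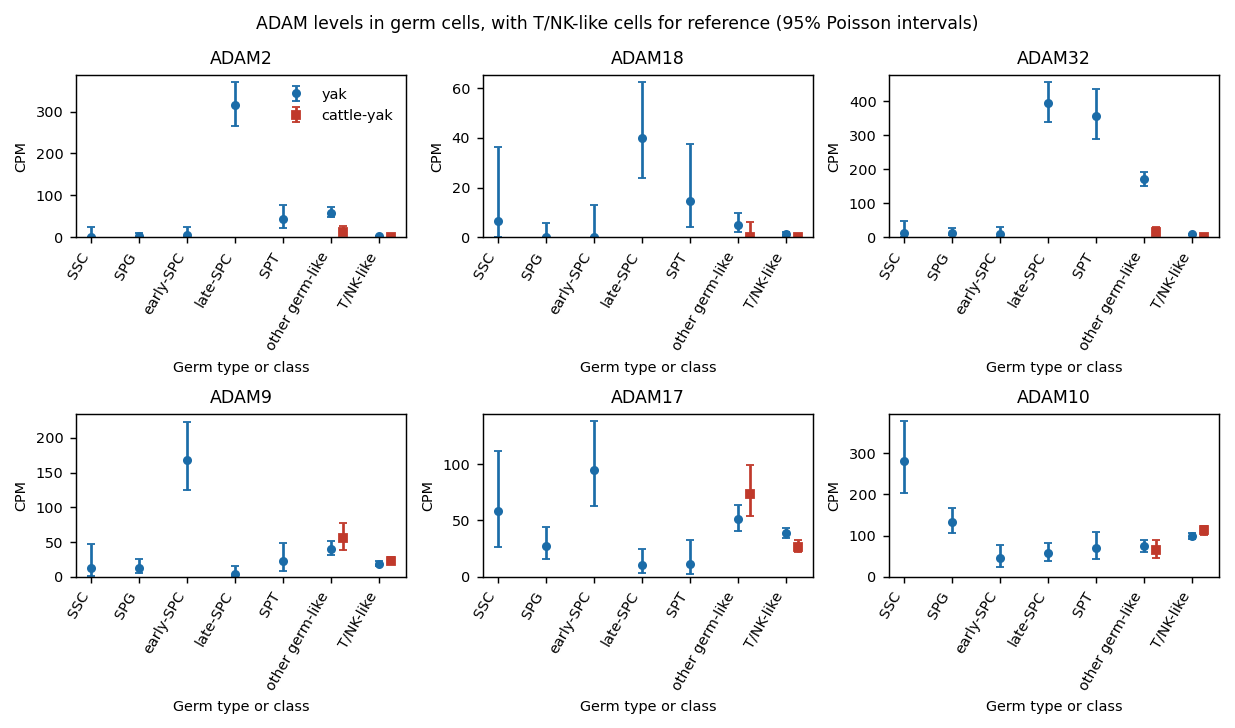
Levels in CPM (y axes, starting at 0) of 6 ADAM genes in yak germ types, in germ-like cells outside those types and in T/NK-like cells (x axes), with blue points for yak, red points for cattle-yak and bars for 95% Poisson intervals. ADAM2 peaks in late-SPC at 315 CPM, ADAM32 holds 395 and 357 CPM in late-SPC and SPT, and ADAM9 and ADAM17 peak in early-SPC.

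Among the germ types ADAMTS1 was highest in SSC. This protease of versican and other proteoglycans had 1646 CPM (1449 to 1862) in SSC, 286 in SPG, 42.1 in early-SPC, 151 in late-SPC and 139.9 in SPT, and SSC stood 5.76-fold above SPG. Its level in yak pericyte-like cells, 1619 CPM (1552 to 1688), lay inside the SSC interval, and it was called in 4 groups of the yak. The 14 annotated EC-like markers summed to 2299 CPM in SSC, against 579 in SPG, 94.8 in early-SPC and 4455 in EC-like cells, with 13 of the 14 detected in SSC. The SSC had 1.57 times the ADAMTS1 level of EC-like cells. Among the 62 SSC that fell in the same cluster as most SPG, ADAMTS1 was at 1695 CPM and the EC-like list at 2271 CPM, and among the 22 SSC in other clusters they were at 1457 and 2408 CPM. The part of endothelial RNA in the ADAMTS1 level of SSC was not tested.

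The inhibitor TIMP1, which blocks many MMPs and is secreted, had 729 CPM (663 to 799) in SPG, against 183 in SSC, 52.7 in early-SPC, 98.7 in late-SPC and 125 in SPT. Its log2 ratio of 0.93 in SPG fell below the limit for a call. TIMP2 had 379.8 CPM in SPG, 368 in SPT, 277 in early-SPC, 176 in SSC and 122 in late-SPC. The stromal-like marker list summed to 932 CPM in SPG, 509.5 in SSC and 179 in early-SPC, against 12617 in stromal-like cells. The muscle marker list summed to 4890 CPM in SPG, 1189 in SSC and 625 in early-SPC, against 33005 in MC-like cells. The 433 SPG in the cluster of most SPG had 695.5 CPM of TIMP1. The other 53 SPG had 891 CPM of TIMP1 and 417 CPM of the stromal-like list. The part of stromal or muscle RNA in the TIMP1 level was not tested.

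Of 10 measured partner genes of the sperm ADAMs, 7 were highest in late-SPC or SPT of the yak. The share of all measured features that led in these types was not computed, so this count is a description only. Of a list of chaperones and sperm surface factors, 11 of 16 were annotated and 10 measured in the yak, and all 10 were called in their leading group, which is the highest of all groups by construction and in which 70.3% of all measured features were called. CLGN, or calmegin, the chaperone through which ADAM complexes fold in the endoplasmic reticulum of male germ cells, had 3112 CPM in late-SPC against 75.7 in other cells, and PDILT, a testis disulfide isomerase, 191 CPM in SPT against 4.47. The other 3 led elsewhere: CANX and CALR, chaperones of many cell types, in early-SPC with 1141 CPM against 181 and 2739 against 395, and TPST2, a tyrosine sulfotransferase, with 227 CPM in EC-like cells against 55.8. In the cattle-yak 6 of the list were measured, and CALR3, a testis calreticulin, led in germ-like cells with 113 CPM against 0.896 elsewhere, followed by CLGN with 227 CPM against 4.17, while ACE and TPST2 led in lymphatic EC-like and EC-like cells. There 56.1% of all measured features were called in their leading group.

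Germ-like cells of the cattle-yak carried little of the sperm ADAMs. The 112 kept germ-like cells of the cattle-yak formed a cluster led by SYCP3, the lateral element protein of the synaptonemal complex, and were set against the 220 yak cells of the cluster that SYCP3 also led. ADAM2 had 64.5 CPM (51.3 to 79.9) there in the yak and 13.4 (5.80 to 26.5) in the cattle-yak, a log2 ratio of -2.18 (-3.52 to -1.22, the interval being that of the ratio without added CPM, as for all comparisons of the libraries), and ADAM32 had 76.1 (61.8 to 92.8) and 16.8 (8.06 to 30.9), a log2 ratio of -2.12 (-3.28 to -1.24). TIMP1 (111.8 and 43.7 CPM) and TIMP3 (34.2 and 11.8 CPM) were also lower in the cattle-yak. These were 4 of 10 members that could be compared, against 7.84% of all features lower by this rule, and none was higher (2.72%). The minimum for comparison was set on UMIs summed over both libraries. The yak gave most of them, with 83 and 8 for ADAM2, 98 and 10 for ADAM32 and 44 and 7 for TIMP3. ADAM2 is also a late-SPC marker of the study. In yak T/NK-like cells TIMP1 and TIMP3 had 110.8 and 86.8 CPM, no less than in these germ-like cells or close to it. The count of 4 is therefore a description only. ADAM17, at 71.5 and 73.9 CPM, and ADAM9, at 81.6 and 55.4 CPM, had log2 ratios of 0.05 (-0.50 to 0.58) and -0.55 (-1.17 to 0.02), whose intervals include 0. The largest ratios were those of ADAM10 (0.35) and TIMP2 (0.21).

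The yak and cattle-yak clusters could not be matched by stage. Of the 220 yak cells, 66 were typed late-SPC and 61 early-SPC by the study, while no type was given for cattle-yak cells. In the yak cells of this cluster, ADAM2 was at 243.9 CPM in late-SPC, at 7.24 in early-SPC and at 48.4 in untyped cells, and ADAM32 at 327, 10.9 and 47.1 CPM. Without the late-SPC, the remaining 154 yak cells had 35.2 CPM (25.1 to 48.2) of ADAM2, and 35.2 CPM of ADAM32 with the same interval, an alternative chosen after the values had been seen. The log2 ratios of cattle-yak over yak were then -1.33 (-2.70 to -0.27) for ADAM2 and -1.03 (-2.24 to -0.04) for ADAM32, each on fewer than 50 summed UMIs, and TIMP1 and TIMP3 had -1.50 and -1.64. Among cells above the depth limits, 219 germ-like cattle-yak cells had 3.10 CPM (1.84 to 4.90) of ADAM2, 0.689 of ADAM18 and 10.7 (8.18 to 13.7) of ADAM32, against 186, 24.6 and 329 CPM in the 412 yak cells. ADAM17 was not lower in these deep cells, at 64.6 CPM in the cattle-yak and 27.1 in the yak. Fewer late germ cells and less RNA per cell cannot be told apart in these sums where types are lacking.

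Among somatic cells ADAMTS4 was highest in pericyte-like and muscle cells of both libraries. ADAMTS4, or aggrecanase 1, had 3195 CPM (3100 to 3291) in yak pericyte-like cells, 1465 in MC-like cells and 1065 in the KCNJ8/STMN2 cluster, where the EC-like markers summed to 3162 CPM and the pericyte-like markers to 3223, and at most 541 in any other yak group. In the cattle-yak the same 3 groups led, with 3379 CPM (3219 to 3545), 2666 and 1227 CPM, and the next group of at least 50 cells had 238. After thinning, 61.8% (55.3 to 68.0) of 238 pericyte-like cells of the yak and 63.2% (53.6 to 72.0) of 114 of the cattle-yak held a UMI of ADAMTS4, against 3.76% and 4.89% of T/NK-like cells, and 81.8% and 80.7% did so without thinning. Pericyte-like cells were called for 2 members in the cattle-yak, ADAMTS4 and ADAMTS7 (background 1.63%).

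ADAMTS1 was spread over more cells. It had 1619 CPM in pericyte-like, 1248 in MC-like, 1046 in EC-like and 795 in lymphatic EC-like cells of the yak, and 1177, 845, 1318 and 862 in the cattle-yak. The order of the classes thus differed, with pericyte-like cells first of the somatic classes in the yak and EC-like cells first in the cattle-yak. ADAMTS9, which cleaves versican and aggrecan, led in the TNNI1/KRT18 cluster of the yak with 129 CPM (113 to 146), and EC-like cells followed with 121 (112 to 131), an overlap of intervals. In the cattle-yak EC-like cells came first with 103 CPM (92.9 to 113) and that cluster next with 93.1 (76.6 to 112).

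ADAMTS12 and ADAMTS7 cleave cartilage oligomeric matrix protein. ADAMTS12 had 69.3 CPM (56.0 to 84.8) in yak pericyte-like and 68.8 (60.4 to 78.1) in lymphatic EC-like cells, and at most 26.9 in any other yak group of 50 or more cells. In the cattle-yak lymphatic EC-like cells led with 84.1 CPM (68.4 to 102), pericyte-like cells had 34.2 and stromal-like cells 27.9. ADAMTS7 was at 38.6 CPM in the KCNJ8/STMN2 cluster and 34.99 in the TNNI1/KRT18 cluster of the yak, and led in pericyte-like cells of the cattle-yak with 56.3 CPM (37.4 to 81.4). ADAMTS18 was measured in the yak alone and led in EC-like cells with 13.9 CPM (10.9 to 17.5), while late-SPC had 21.0 CPM from 10 UMIs.

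Among groups with at least 20 UMIs of the gene, stromal-like cells of both libraries led for ADAMTS2, ADAMTS3, ADAM33 and ADAMTS17. For ADAMTS3 and ADAMTS17 no other group of at least 50 cells had 20 UMIs. In the cattle-yak, ADAMTS2, ADAMTS3 and ADAMTS14 together had 36.2 CPM from 18 UMIs in pericyte-like cells and 34.9 CPM in stromal-like cells. ADAMTS2, which removes the amino-terminal propeptide of procollagens, had 24.4 CPM (19.7 to 29.9) there in the yak and 28.3 (23.9 to 33.2) in the cattle-yak, and ADAMTS3, of the same function, had 9.71 and 6.64 CPM. ADAM33, an ADAM of mesenchymal cells, had 49.6 CPM (42.8 to 57.2) and 43.2 (37.8 to 49.2). ADAMTS17 had 14.2 and 7.78 CPM. ADAMTS10, a protein of fibrillin microfibrils, had 21.8 CPM in stromal-like cells and 20.7 in the TNNI1/KRT18 cluster of the yak, and led in that cluster of the cattle-yak with 27.7 CPM (19.0 to 38.9). ADAMTS5, or aggrecanase 2, had 77.9 CPM (69.3 to 87.3) in yak stromal-like cells and 97.3 (61.7 to 146) in the 69 cells of the WFDC2/TF cluster, and led in MC-like cells of the cattle-yak with 44.4 CPM.

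**Figure D2:**
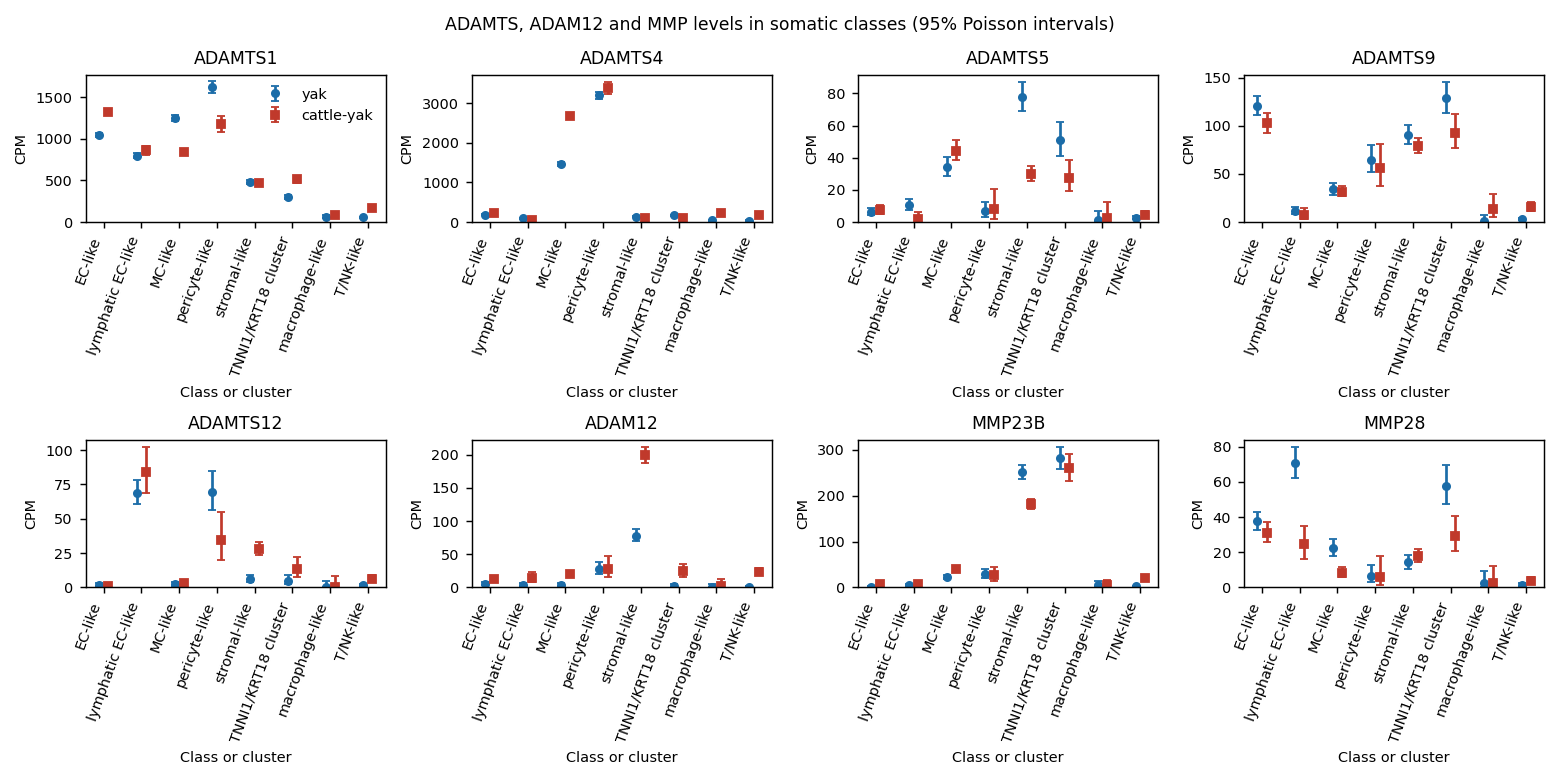
Levels in CPM (y axes, starting at 0) of 5 ADAMTS genes, ADAM12, MMP23B and MMP28 in 8 somatic classes or clusters (x axes), with blue circles for yak, red squares for cattle-yak and bars for 95% Poisson intervals. ADAMTS4 lies at 3195 and 3379 CPM in pericyte-like cells of the 2 libraries, and ADAM12 in stromal-like cells lies at 78.2 CPM in the yak and 199.6 in the cattle-yak.

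Among the MMPs only a few were well measured. MMP23B, a membrane-bound MMP without the usual haemopexin domain, had 281 CPM (258 to 306) in the TNNI1/KRT18 cluster and 251 (236 to 268) in stromal-like cells of the yak, and 261 and 182 CPM in the cattle-yak. MMP2, gelatinase A, had 41.2 CPM (35.01 to 48.2) in stromal-like cells and 36.0 in the TNNI1/KRT18 cluster of the yak, and 42.7 (37.3 to 48.6) and 24.3 CPM in the cattle-yak. MMP14, the membrane-type MMP that activates MMP2 together with TIMP2, was led in the yak by lymphatic EC-like cells with 19.3 CPM (15.0 to 24.5), with stromal-like cells at 15.7 (12.02 to 20.3), and in the cattle-yak by stromal-like cells with 19.5 CPM. MMP28, or epilysin, had 70.5 CPM (62.0 to 79.9) in lymphatic EC-like cells of the yak and was led in the cattle-yak by EC-like cells with 31.1 CPM, with the TNNI1/KRT18 cluster at 29.4. MMP19 was the sole member led by macrophage-like cells, with 75.2 CPM (57.3 to 97.1) from 59 UMIs in the yak (1 member called, background 5.36%). Pericyte-like cells of the yak had 40.5 CPM, but the ICAM5/NRK cluster led in the cattle-yak with 19.1 CPM, where pericyte-like cells had 30.2 CPM from 15 UMIs. MMP15 had 8.38 CPM in the KCNJ8/STMN2 cluster and 7.85 in EC-like cells of the cattle-yak.

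ADAM10 was high in both endothelial classes, ADAM15 in EC-like and ADAM19 in lymphatic EC-like cells. ADAM10 had 382 CPM (365 to 399) in EC-like and 319 (300.5 to 338) in lymphatic EC-like cells of the yak, and 382 (363 to 402) and 306 (275 to 339) in the cattle-yak, and T/NK-like cells had 98.5 and 113. The 20 cattle-yak cells of the SCN7A/CDH19 cluster had 842 CPM from 39 UMIs. ADAM15, an ADAM of endothelial cells, had 66.5 CPM (59.7 to 73.8) and 62.5 (54.8 to 70.9) in EC-like cells, and only 7.68 and 7.57 in lymphatic EC-like cells. ADAM19 was highest in lymphatic EC-like cells, with 13.9 CPM and 20.2 CPM, and was the 1 member called in yak T/NK-like cells, at 8.94 CPM (background 7.5%). In the cattle-yak 7 members were called in EC-like cells (background 9.09%) and 5 in lymphatic EC-like cells (3.61%).

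The inhibitors differed in place. TIMP1 had 1187 CPM (1153 to 1222) in stromal-like and 916 in pericyte-like cells of the yak, and 655 (633 to 677) in stromal-like cells and 632 in the TNNI1/KRT18 cluster of the cattle-yak. TIMP2 led in lymphatic EC-like cells of the yak with 1653 CPM (1611 to 1696.5), with 1122 in the WFDC2/TF cluster and 1090.2 in stromal-like cells, and pericyte-like cells had 128. In the cattle-yak 104 cells of the DEFB123/AARD cluster had 1851 CPM (1679 to 2036), ahead of 784 in lymphatic EC-like cells. The 32 yak cells of that cluster had 2099 CPM from 113 UMIs. The cluster met no naming rule, and the list of Sertoli cell markers summed to 1449 CPM there in the yak and 1405 in the cattle-yak. A cluster of 14 cattle-yak cells led by STAR and TNNI3 had 9769 CPM of TIMP2 from 1196 UMIs, the highest TIMP2 level of any group.

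TIMP3, which binds the matrix and blocks ADAM17 and the aggrecanases as well as MMPs, had 604 CPM (579 to 631) in lymphatic EC-like, 530.0 in pericyte-like and 515 in EC-like cells of the yak. In the cattle-yak EC-like cells had 619.5 CPM (595 to 645) and lymphatic EC-like cells 570.2 (528 to 615), and macrophage-like cells had 40.8 and 46.7 CPM in the 2 libraries, the lowest of the somatic groups of at least 50 cells. TIMP4 was called in lymphatic EC-like cells alone in the yak, with 287 CPM (269.8 to 306) in lymphatic EC-like and 76.7 in EC-like cells of the yak and 88.3 (72.2 to 107) and 49.2 in the cattle-yak. Its log2 ratio in lymphatic EC-like cells was 3.57 in the yak and 2.70 in the cattle-yak.

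**Figure D3:**
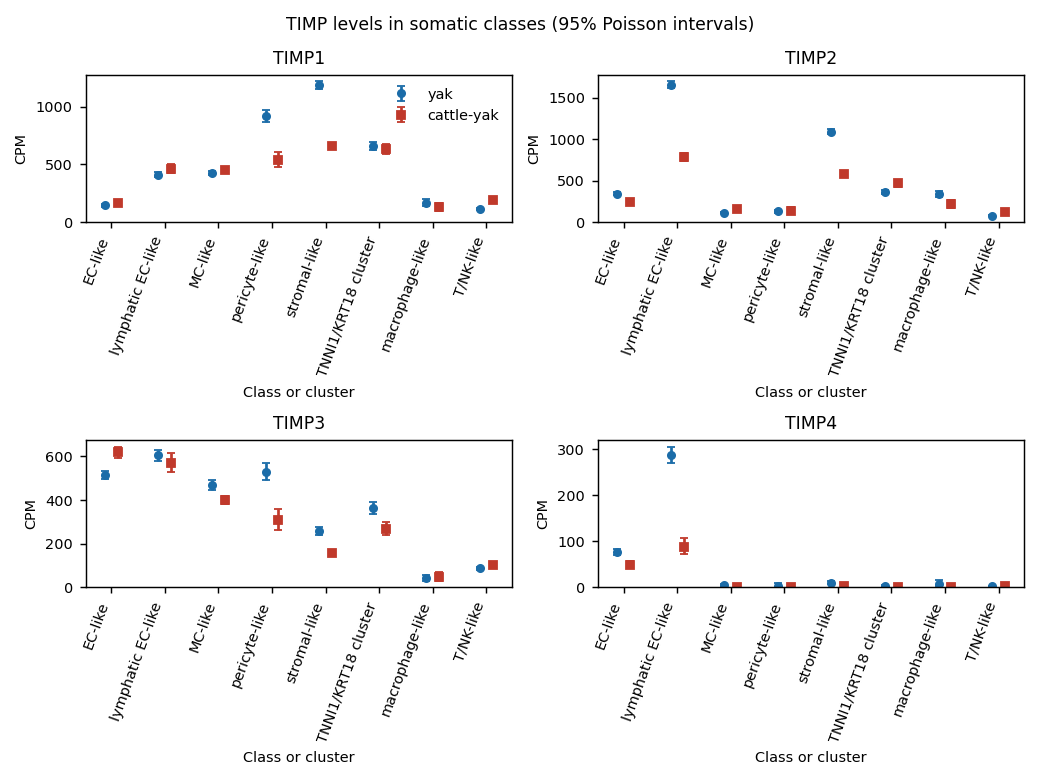
Levels in CPM (y axes, starting at 0) of the 4 TIMP genes in 8 somatic classes or clusters (x axes), with blue circles for yak, red squares for cattle-yak and bars for 95% Poisson intervals. TIMP1 is highest in stromal-like cells, TIMP2 and TIMP4 in lymphatic EC-like cells and TIMP3 in endothelial cells, and TIMP4 in lymphatic EC-like cells lies at 287 CPM in the yak and 88.3 in the cattle-yak.

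Other genes of the matrix and of protease control were highest in somatic cells or, for some, in germ types. All 10 annotated genes of a list of matrix substrates were measured in the yak and called in their leading group, in which 70.3% of all measured features were called, so that these counts say little of the lists. They ran from DCN (decorin) with 2138 CPM in stromal-like cells against 83.2 elsewhere and COL3A1 with 789.7 against 48.7 to COL4A2 with 661 CPM in the KCNJ8/STMN2 cluster against 176 and LAMC1 with 298 in lymphatic EC-like cells against 129.9. Of genes that control MMPs and ADAMTSs, 10 of 11 annotated were measured and called, headed by A2M, the broad protease inhibitor, with 1423 CPM in stromal-like cells against 65.9 and TFPI2 with 1479 CPM in EC-like cells against 158, and ending with ADAMTSL4 and THBS2 at 6.61 and 22.3 CPM in T/NK-like and stromal-like cells. Germ types led for FN1, or fibronectin, and ADAMTSL5, with 751 and 451 CPM in SSC, and for ADAMTSL3, with 63.0 CPM in late-SPC. In the cattle-yak FN1 and ADAMTSL5 led in EC-like cells, with 527 and 255 CPM. The EC-like markers summed to 2299 CPM in yak SSC, and the part of endothelial RNA in these SSC levels was not tested. Of the plasminogen system 4 of 6 annotated genes were measured and called, among them PLAU, the urokinase, which led in macrophage-like cells with 42.1 CPM, SERPINE2 in pericyte-like cells with 167 and PLAT in SSC with 189. PLAT led in EC-like cells of the cattle-yak with 155 CPM, and the endothelial part of its SSC level was likewise not tested. Of the sheddase regulators 9 of 11 annotated were measured and 6 called, headed by TSPAN5, a tetraspanin that binds ADAM10, with 169 CPM in SPT against 30.7 and PCSK5 with 71.4 CPM in late-SPC against 15.1, while PCSK7 and TSPAN17 reached log2 ratios of 0.66 and 0.36 in their leading group. In the cattle-yak 10 of 10, 9 of 9, 4 of 4 and 5 of 9 measured genes of these lists were called, against 56.1% of all measured features.

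Between the libraries, classes with at least 50 cells in both were compared for members with at least 50 summed UMIs. The libraries differed in mitochondrial load. At a limit of 20% in place of 30%, 8923 of 10324 kept yak cells would remain, but only 3870 of 7092 kept cattle-yak cells. The part of this difference in the ratios was not tested. In 9 somatic classes 12 pairs of a member and a class were at least 1 higher on the log2 scale in the cattle-yak and 8 at least 1 lower. The stromal-like class had 903 yak and 1970 cattle-yak cells, and of 24 members 2 were higher (background 1.8%) and 1 lower (7.92%). ADAM12, a protease of mesenchymal cells that acts on IGF binding proteins and EGF receptor ligands, had 78.2 CPM (69.6 to 87.6) in the yak and 199.6 (188 to 212) in the cattle-yak, a log2 ratio of 1.34. In the 3 cattle-yak clusters of this class it was at 131, 232 and 206 CPM, each above the yak level. ADAMTS12 had 5.77 and 27.9 CPM, a log2 ratio of 2.09 (1.62 to 2.99), and ADAMTS5 had 77.9 and 30.0 CPM, a log2 ratio of -1.35 (-1.67 to -1.10), with 19.8 to 37.0 CPM in the 3 cattle-yak clusters. TIMP1 and TIMP2 were at 1187 and 655 CPM and at 1090.2 and 583 CPM, with log2 ratios of -0.86 and -0.90, short of a call, and the 4 inhibitors together had a log2 ratio of -0.87 (-0.91 to -0.82), against a median of -0.25 over all features. On a CPM scale without mitochondrial and rRNA features the ratio of the inhibitors was -0.52. That scale changes only the totals and so moves all features of the class about alike. The median over all features was not computed on it, so -0.52 cannot be set against -0.25. ADAM15 had -0.88 in this class and MMP28 0.33.

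In lymphatic EC-like cells 3 of 15 members were lower in the cattle-yak (background 9.19%) and none higher (1.48%). TIMP4 had a log2 ratio of -1.69 (-2.01 to -1.41), MMP28, with 70.5 and 24.4 CPM, one of -1.49 (-2.14 to -0.97), and TIMP2, with 1653 and 784 CPM, one of -1.08 (-1.18 to -0.98). The median over all features in this class was -0.33, and the 4 inhibitors together had -0.63. On the scale without mitochondrial and rRNA features the inhibitors had -0.27. That scale changes only the totals and so moves all features of the class about alike. The median over all features was not computed on it, so -0.27 cannot be set against -0.33. The largest ratios of the class were those of ADAM19 (0.50), ADAMTS7 (0.37) and ADAMTS12 (0.29). The classes of the 2 libraries differed in markers. The lymphatic EC-like list summed to 5036 CPM in the yak class and 11147 in the cattle-yak class. The EC-like list summed to 2494 and 1395 CPM. The part of these differences in the ratios was not tested. After thinning, 74.9% (71.5 to 78.0) of 713 yak cells and 54.3% (48.5 to 59.98) of 304 cattle-yak cells held a UMI of TIMP2, and 95.5% and 86.2% did so without thinning. EC-like cells differed in no member by this rule, with 19 compared (2.54% of features higher and 3.24% lower). Their largest ratios were those of ADAM12 (0.99), ADAMTS7 (0.58) and MMP2 (0.42) and their smallest those of ADAMTS18 (-0.67), TIMP4 (-0.63) and TIMP2 (-0.49).

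In MC-like cells, 1 of 17 members was higher (background 2.44%) and 1 lower (2.89%). ADAM12 had 3.46 and 20.5 CPM, a log2 ratio of 2.27 (1.72 to 3.53), and MMP28 had 22.3 and 8.42 CPM, a log2 ratio of -1.31 (-2.01 to -0.83). ADAMTS4 differed by 0.86, with 1465 and 2666 CPM, but its 2 clusters in the cattle-yak stood at 1475 and 3851 CPM, the first at the yak level. MMP14 had a log2 ratio of 0.90 in this class, MMP2 one of -0.75 and ADAMTS1 one of -0.56. In pericyte-like cells ADAMTS7 alone was higher (1 of 13, background 1.4%), with a log2 ratio of 1.14 (0.39 to 1.93) on 25.1 and 56.3 CPM, and no member was lower (6.36%). There ADAMTS12 had -0.998, TIMP3 -0.78 and TIMP1 -0.76, and ADAM9 had 0.16 and TIMP2 0.11. The muscle marker list summed to 14224 CPM in pericyte-like cells of the yak and 4441 in those of the cattle-yak. The pericyte-like list summed to 5664 and 4689 CPM. The part of these differences in the ratios was not tested. The KCNJ8/STMN2 cluster had 1 of 18 higher (2.05%), ADAM12 with 4.49 and 16.8 CPM, and none lower (2.9%), and the TNNI1/KRT18 cluster had none of 15 higher (1.86%) or lower (6.27%). In the former ADAMTS7 (0.47) and MMP23B (0.31) followed ADAM12 (1.69), and TIMP4 (-0.66), ADAM17 (-0.62) and TIMP2 (-0.57) were smallest. In the latter the ratios ran from MMP28 (-0.95), ADAMTS5 (-0.86) and ADAMTS4 (-0.68) to ADAMTS10 (0.40), ADAM9 (0.52) and ADAMTS1 (0.76). The stromal-like marker list summed to 709.7 CPM in MC-like cells of the yak and 1585 in those of the cattle-yak. In the KCNJ8/STMN2 cluster it summed to 608 and 974 CPM. The part of stromal RNA in the ADAM12 levels of MC-like cells and of this cluster was not tested.

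**Figure D4:**
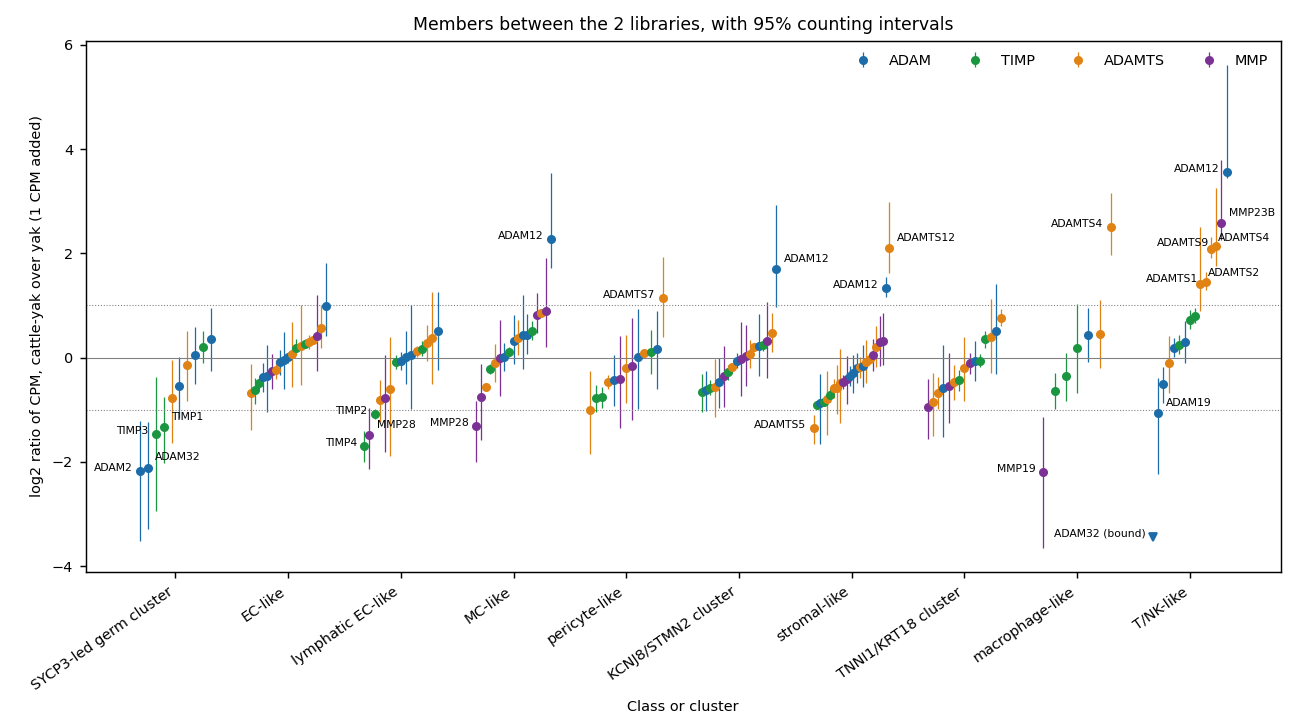
Log2 ratio of CPM of cattle-yak over yak, with 1 CPM added to each side (y axis), of each member with at least 50 summed UMIs in each class or cluster (x axis), colored by family, with bars for 95% counting intervals of the ratio without added CPM and dotted lines at 1 and -1. ADAM12 is above 1 in 4 classes, TIMP4, MMP28 and TIMP2 are below -1 in lymphatic EC-like cells, and the triangle for ADAM32 in T/NK-like cells marks a bound, since the cattle-yak had no UMI there.

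In the immune classes MMP19, which macrophage-like cells led in the yak, was lower in the cattle-yak, and most members called higher were led by other cells. In macrophage-like cells (211 and 105 cells) MMP19 was at 75.2 and 15.6 CPM, a log2 ratio of -2.20 (-3.65 to -1.14; 1 of 7 members lower, background 4.96%), and ADAMTS4 at 40.8 and 238 CPM, a log2 ratio of 2.51 (1 of 7 higher, background 1.97%). Without the cells of the highest 10% of doublet scores the ratio of ADAMTS4 turned to -0.53. TIMP2 (-0.64) and TIMP1 (-0.36) were lower in ratio and ADAM10 (0.43) and ADAMTS1 (0.45) higher, all short of a call. In T/NK-like cells (3739 and 1251 cells) 6 of 15 members were higher in the cattle-yak (6.91%), ADAM12, ADAMTS1, ADAMTS2, ADAMTS4, ADAMTS9 and MMP23B, and 2 lower (6.13%), ADAM19 and ADAM32. The log2 ratios of ADAM12, MMP23B and ADAMTS9 were 3.56, 2.57 and 2.14, and those of ADAM19 and ADAM17 were -1.07 and -0.51. The stromal-like marker list summed to 165 CPM in T/NK-like cells of the yak and to 1219 in those of the cattle-yak. Within the cattle-yak class, ADAM12 was at 185 CPM in a cluster of 54 cells and at 44.8 in a cluster of 127 cells led by cell cycle genes, and ADAMTS4 was at 693 CPM in the latter, against 1.23 to 5.01 CPM of ADAM12 and 34.5 to 38.4 CPM of ADAMTS4 in the other 3 clusters.

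Without those 2 clusters and the yak cluster led by the same feature as the cycling cluster, an alternative chosen after the values had been seen, 3617 yak and 1070 cattle-yak T/NK-like cells remained, and none of the 11 members that still had 50 summed UMIs was higher (1.46% of features) and 1 lower (7.59%). Of the 6 members called higher before, only ADAMTS4, at 34.97 and 36.1 CPM, and ADAMTS1, at 37.7 and 44.0 CPM, kept that minimum, with log2 ratios of 0.05 and 0.22. The other 4 fell under it: ADAM12 had 1 and 7 UMIs and a log2 ratio of 1.73 (1.42 to 9.88), ADAMTS2 20 and 25 UMIs and a log2 ratio of 1.57 (0.99 to 2.82), MMP23B one of 0.94 and ADAMTS9 one of 0.60. The fall in calls thus came in part from the minimum count. ADAM32 was the member still lower, with 75 UMIs in the yak and none in the cattle-yak. Over the whole class ADAM32 had 9.31 CPM (7.33 to 11.7) in the yak and none in the cattle-yak, where 3 counts would give 0.862 CPM. The yak level was 10.8-fold that value, a ratio that leaves out the counting error of the yak level. T/NK-like cells were taken above as the background for this gene, and the difference was not particular to them. The summed sperm ADAMs had 12.6 CPM in stromal-like cells of the yak and 0.948 in those of the cattle-yak, and 5.05 and 0.228 in MC-like cells. The source of these UMIs in somatic cells was not tested.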

How the data were processed

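The data were UMI counts from 10x Genomics droplets of 1 yak and 1 cattle-yak testis. The authors mapped reads to the yak genome BosGru3.0 and deposited filtered matrices of whole UMI counts per feature and cell, not normalized; the Cell Ranger version is given as 2.1.1 in the submitters' processing notes and as 5.0.0 in the file headers.

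Cells with genes and UMIs within 2 SD of the library mean and under 30% mitochondrial UMIs were kept. Yak germ types came from the study's table, whose 1127 barcodes were all kept. All kept cells were clustered with scanpy 1.11.5 (2000 variable genes, 30 components, 15 neighbours, Leiden resolution 1), leaving out the members and the genes the study names, and for the other cells a cluster was named from at least 3 raised markers with a UMI in 10% of cells. Scrublet called no yak cell at its automatic threshold and 251 cattle-yak cells (2.81%), and no doublet was removed. Whether its scores mark doublets in the yak was not tested, and the alternative without the highest 10% of scores used them in both libraries. The study's names may differ from these.

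UMIs were summed per group and given as CPM. Intervals are exact 95% Poisson intervals for levels, Clopper-Pearson for shares and conditional for ratios, and cover counting error only. With 1 library per group no test was run. A count of 0 allows up to 3 counts. Shares were taken from cells thinned to 1000 UMIs.

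The members and gene lists were chosen with earlier results of these data known. Every member with at least 50 UMIs over kept cells was named with its leading group, the 3 with the largest ratios per group in full. Between libraries the 3 largest and smallest ratios were named, and of each partner list the first and last 2. A gene that this rule names is not reported here. Alternatives changed 1 choice at a time. The calculations were checked on simulated data. Sequences were not used here.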

Additional observations from a re-analysis of the deposited data

Results flagged for a closer look

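Somatic classes other than T/NK-like cells were searched for members with log2 ratios of cattle-yak over yak that pointed opposite ways. For 4 members this held in a pair of classes, with each ratio at least 0.5 in size. The difference between the classes was not tested, since each class had 1 library on each side. TIMP1, not among the 4, had 0.80 in T/NK-like cells and was lower in the cattle-yak in stromal-like cells. ADAMTS1 had 0.76 in the TNNI1/KRT18 cluster and -0.56 in MC-like cells. ADAMTS12 had 2.09 in stromal-like and -0.998 in pericyte-like cells. ADAMTS4 had 2.51 in macrophage-like and -0.81 in lymphatic EC-like cells, and the former turned when cells of high doublet score were left out. TIMP2 had 0.52 in MC-like and -1.08 in lymphatic EC-like cells.

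The germ-like cells above the limits on genes and UMIs entered no comparison of groups, yet held the sperm ADAMs. In the yak ADAM2 stood at 186 CPM, ADAM18 at 24.6 and ADAM32 at 329 in these cells. In the cattle-yak they stood at 3.10, 0.689 and 10.7 CPM.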

How the results depend on the processing

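No paired analysis was possible because each group had 1 library and no test was run. Of 200 alternative values of the group results, 154 stayed close and 46 moved, and the causes were not tested. Among 543 alternative values of 51 results for single genes, 507 stayed within 0.5 on the log2 scale. A further 35 moved by 0.5 or more, whether the ratio grew or shrank. A change of sign counted as a reversal only where the main log2 ratio was at least 1 in size. By this rule 1 reversed: ADAMTS4 in macrophage-like cells of cattle-yak over yak, -0.53 without the highest 10% of doublet scores.

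Members led by germ cells numbered 13 in the yak and 5 in the cattle-yak with no upper limits, 3 in the yak with germ cells named by cluster and 1 in the cattle-yak with cells weighted equally. The log2 ratio of the summed sperm ADAMs in yak late-SPC, 5.06, was 2.44 with no upper limits and 4.35 with equal weights, and over all yak germ cells, 4.87, it was 6.03 and 4.09. For ADAMTS proteoglycanases in pericyte-like cells, at 2.26 in the yak, it was 1.83 at a mitochondrial limit of 20%, 2.20 with no upper limits, 2.34 without mitochondrial and rRNA features, 2.76 with equal weights, 1.90 and 2.18 at Leiden resolutions 0.5 and 2, and 2.32 without high doublet scores. In the cattle-yak, at 1.62, it was 1.95 with equal weights and 1.75 without high doublet scores.

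For the inhibitors in yak lymphatic EC-like cells, at 1.52, it was 1.72 with no upper limits, 1.5996 without mitochondrial and rRNA features, 1.80 with equal weights and 1.604 without high doublet scores, and in those of the cattle-yak, at 0.83, 0.91 at the 20% limit, 0.96 with no upper limits and 1.04 without mitochondrial and rRNA features. In yak stromal-like cells, at 1.26, it was 1.49, 1.33, 1.39, 1.31 and 1.33 with no upper limits, without mitochondrial and rRNA features, with equal weights, at resolution 0.5 and without high doublet scores. Between libraries, the inhibitors in lymphatic EC-like cells, at -0.63, had -0.47 at the 20% limit, -0.27 without mitochondrial and rRNA features and -0.71 without high doublet scores, and in stromal-like cells, at -0.87, -0.98 with no upper limits, -0.52 without mitochondrial and rRNA features, -0.75 with equal weights, -1.05 and -0.94 at resolutions 0.5 and 2, and -0.91 without high doublet scores.

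Pairs of a member and a class called higher in the cattle-yak, 12, numbered 22 at a minimum of 20 UMIs and 3 at 200, and those lower, 8, numbered 15 and 4, and 19 and 13 at resolutions 0.5 and 2. Without the cycling and mixed clusters, chosen after seeing the data, T/NK-like members called higher fell from 6 to 0 and lower from 2 to 1, but 4 of the 6 fell under the minimum of 50 UMIs, ADAM12 and ADAMTS2 with log2 ratios of 1.73 and 1.57, and only ADAMTS1 and ADAMTS4 were compared and fell below 1.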
